A study of Oryza sativa with 6 samples.

Results

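Rice genes that carry an RH name, the name used for plant DEAD-box RNA helicases, were chosen by that name and compared between shoots of a dst mutant and of wild-type rice. A gene was taken when its whole name in an NCBI RefSeq gene table (assembly ASM3414082v1) was RH followed by digits, with or without an Os prefix. The table holds 7 such genes, and 4 of them have a probe set on the array, out of 17905 genes with a probe set. These 4 genes are read by 8 of the 57194 rice probe sets. They are LOC4333273 (RH34), LOC4333678 (RH10), LOC4337589 (RH17) and LOC4324018, for which the table gives the name RH2. The platform annotation itself uses no RH name, so the names rest on the synonyms of the gene table, which gives synonyms for 3391 of its 39387 genes. The large majority of the rice helicase family is therefore not described here.

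The label of a helicase does not hold for LOC4324018. In the gene table its whole span is 761 bases, which could hold at most 253 codons, fewer than the conserved helicase core of a DEAD-box protein needs. The name RH2 is carried by 2 genes of the table, and the other is EIF4A3A, also named OsRH2 and eIF4A-III, with a span of 3528 bases. EIF4A3A has no probe set assigned to it and was not analysed here. LOC4324051 (RH3) and LOC4338570 (RH1), with spans of 571 and 878 bases, have no probe set either. LOC4324051 lies near LOC4324018, with 2 genes between them in the gene order. RH34, RH10 and RH17 span 4511, 4747 and 3579 bases. LOC4324018 is accordingly called by its identifier, and its function is not given in the sources used here.

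DEAD-box proteins are RNA-dependent ATPases, named after a conserved run of amino acids in their helicase core, that open short RNA duplexes or clamp onto RNA. They work at nearly every step in the life of an RNA, from splicing and ribosome assembly to export, translation and decay. The founding member is the translation initiation factor eIF4A. RH34 and EIF4A3A encode eIF4A-III, a close relative of eIF4A that forms the RNA clamp of the exon junction complex, a mark left on messenger RNA by splicing. RH10, also named TOGR1 in the table, is known in rice as a nucleolar helicase that assists the processing of ribosomal RNA precursors and is needed for growth in the heat. RH17 belongs to the group of helicases that resemble yeast Dbp7, which acts in the assembly of the large ribosomal subunit.

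Total RNA came from shoots of seedlings kept for 25 days in a growth chamber, with 11 h light at 26 °C and 13 h dark at 22 °C, and was hybridised to Affymetrix rice arrays, 1 per sample. The wild type was the japonica cultivar Zhonghua 11 and the other line was the dst mutant, with 3 biological replicates of each, and no stress treatment is stated. The dst mutant is known for a changed response to drought and salt. The labels give neither the allele nor the parent cultivar of the mutant, and the mutated gene itself was not analysed here. The series asked how the transcriptome differs between the lines.

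The values are deposited signals on a linear scale, and the number of arrays limits their precision. Median rice signals lay between 117.6 and 140.9 on the 6 arrays, and the third array of each line had a lower highest signal than the other two. Green shoot markers were bright, with the brighter probe set of the light-harvesting gene CAB2R between 30464.6 and 42915.1 on the wild-type arrays and between 31964.2 and 38939.6 on the dst arrays. Of the 4 genes of that list 3 passed the signal filter, and RBCS-A, at 51.4 to 87.0 over the 6 arrays, did not. Of the 8 seed storage genes 5 were below that filter, which is described next. GLUA-2 was lower on each dst array without passing the test (limma adjusted p of 0.419). The lines lay apart in 18.4% of all genes, in either direction. GLB1 gave 1157.0 to 1599.7 over the 6 arrays. The 1 root marker and 2 of the 3 pollen markers were tested, and none passed. These root and pollen markers were dim, at 179.3 or below on every array, where the filter value was 70.5. The log2 ratio of the GAPDH control signals near the 3' and 5' ends did not overlap between the lines: the wild-type arrays gave 0.354 to 0.618 and the dst arrays 1.014 to 1.362. For actin it overlapped, with 1.827 to 2.046 against 1.814 to 2.007.

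In dst shoots the 3 helicase genes RH34, RH10 and RH17 did not pass the test, and LOC4324018 was lower. By their brightest probe sets 0 of the 3 had an unadjusted p under 0.05 in limma, beside 12.6% of all tested genes. The dimmest probe sets of RH10 and RH17 had an unadjusted limma p under 0.05, that of RH17 in a fit without the signal filter. Differences are given on the log2 scale as dst minus wild type with their standard error from limma, a linear model fitted over the 34316 probe sets whose mean log2 signal reached the 40th percentile, with p-values adjusted by Benjamini-Hochberg and called under 0.05. Of the 8 probe sets 7 passed that filter on low signal, and each of the 4 genes is represented by the probe set with the highest mean log2 signal over the 6 arrays. Of the 4 genes, 1 fell (LOC4324018), none rose and 3 did not pass, while 0.987% of 16013 tested genes passed in either direction and 0.537% fell. The name group was picked out on the dst and wild-type signals of LOC4324018, whose fall was known, so nothing is read from the count of 1. In dst 2 of the 4 genes averaged higher, beside 54.1% of all genes, and the median difference was -0.07, beside 0.02 over all genes. That median turns to 0.11 without LOC4324018 and to 0.19 with the mean over the probe sets of each gene. Fewer cells of a type and less RNA per cell cannot be told apart in such whole-shoot samples.

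**Figure D1:**
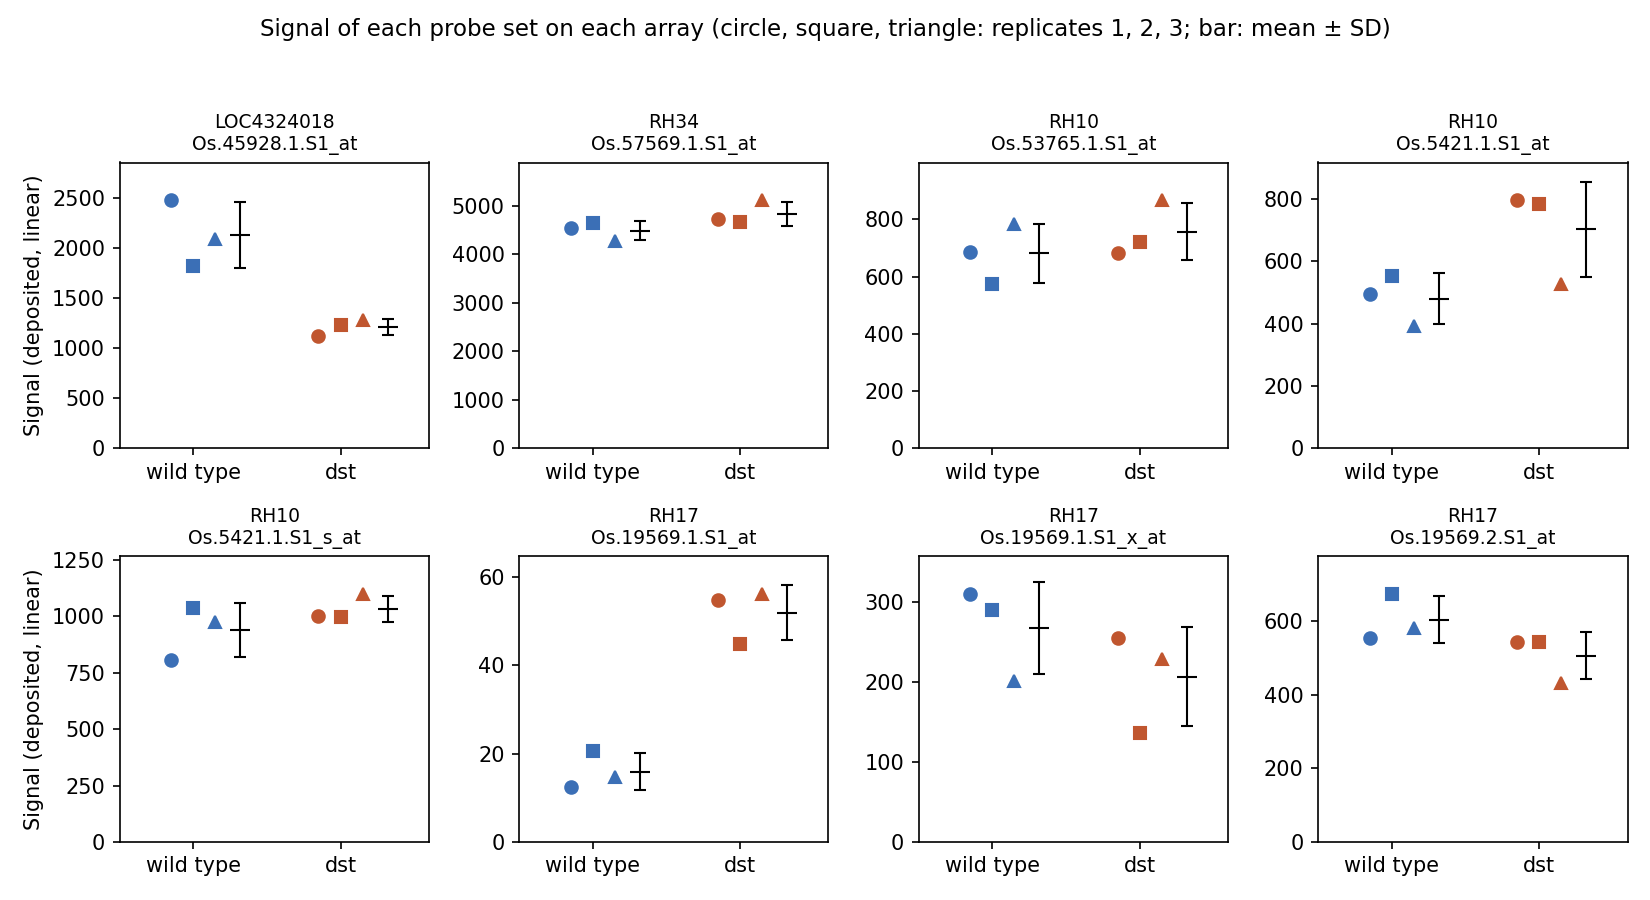
Deposited signal on the linear scale of each of the 8 probe sets on each array, in wild type (blue) and dst (orange), with the group mean ± SD (n = 3) in black. Each panel has its own vertical axis from 0. LOC4324018 lies at 1822.4 or above on every wild-type array and at 1283.1 or below on every dst array.

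RH34, the eIF4A-III gene, had closely spaced signals in both lines. Its only probe set gave 4547.1, 4651.2 and 4271.3 on wild-type arrays 1 to 3 and 4720.7, 4673.5 and 5124.4 on the dst arrays. The dst values lie above the wild-type values, as in 10.7% of all genes. The gap between the nearest arrays is small beside the spread within each line. The means were 4490 ± 196 and 4840 ± 248 (SD, n = 3). The difference was 0.11 ± 0.10 (SE), with a 95% interval of -0.11 to 0.33 and a limma adjusted p of 0.772. The interval leaves out rises of more than 0.33 and falls of more than 0.11 on that scale. EIF4A3A encodes a very similar protein, and whether the RH34 probe set also reads its transcript was not tested.

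RH10 was measured with 3 probe sets, and the size of the difference varied among them. The brightest, an _s_at set, gave 807.4, 1038.6 and 975.5 in the wild type and 1002.5, 998.6 and 1101.0 in dst, so the lines overlapped. Its difference was 0.14 ± 0.14 (SE), with a 95% interval of -0.16 to 0.45 and a limma adjusted p of 0.790. By the Affymetrix naming of probe sets, the ending _s_at marks probes shared by several transcripts, and _x_at marks probes that may bind unrelated ones.

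The dimmest RH10 probe set, with unique probes, gave 496.9, 552.5 and 393.1 in the wild type against 798.4, 784.8 and 526.8 in dst. Replicates 1 and 2 of dst lie above all wild-type arrays, whereas dst replicate 3 lies below wild-type replicate 2. Here the difference was 0.54 ± 0.21 (SE), with a 95% interval of 0.0746 to 1.0007. In limma its unadjusted p was 0.0273 and its adjusted p 0.387. The last RH10 probe set also has unique probes by its ending and is brighter than this one. It measured 0.16 ± 0.16 (SE) with a 95% interval of -0.21 to 0.52 and an unadjusted limma p of 0.365. All 3 probe sets averaged higher in dst and none passed the test.

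RH17 was also read by 3 probe sets, and these did not share a direction. The brightest gave 553.6, 675.2 and 581.6 in the wild type and 544.4, 542.5 and 433.2 in dst. The dst values lie below the wild-type values, by 9.2 signal units between the nearest arrays. The lines lay apart in 18.4% of all genes, in either direction. For this probe set the difference was -0.25 ± 0.16 (SE), with a 95% interval of -0.62 to 0.11 and a limma adjusted p of 0.650. The _x_at probe set leaned the same way, at -0.40 ± 0.30 (SE), with overlapping lines.

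The dimmest RH17 probe set went the other way. It gave 12.4, 20.5 and 14.7 in the wild type and 54.7, 44.7 and 56.2 in dst. Every dst array was above every wild-type array, at signals below the filter value of 70.5. In 14.1% of all rice probe sets the lines lay apart in this way, in either direction. The filter left this probe set out of the test. In the fit with no filter, its difference was 1.73 ± 0.59 (SE), with a 95% interval of 0.42 to 3.05, an unadjusted p of 0.0153 and a limma adjusted p of 0.405. Whether such low signals stand above background is not known. The mean over the 3 RH17 probe sets was 0.36, so the sign for the gene as a whole depends on this dim probe set.

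**Figure D2:**
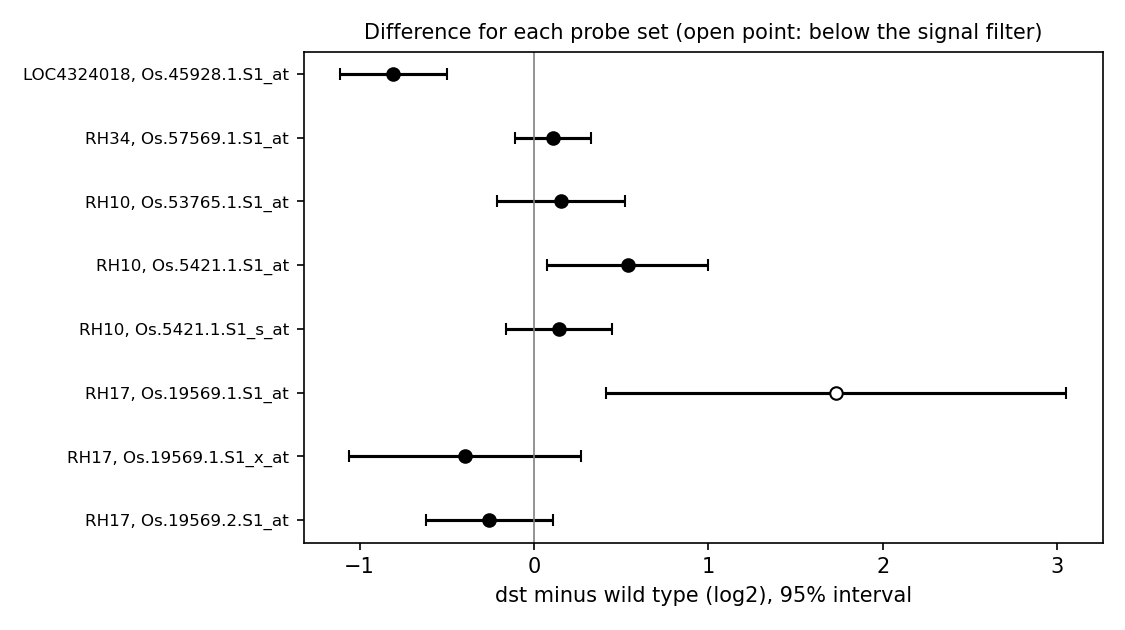
Difference in log2 signal, dst minus wild type, for the 8 probe sets, with the 95% interval from limma. The open point is the RH17 probe set below the signal filter, at 1.73, and the other 2 probe sets of RH17 lie at -0.40 and -0.25.

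LOC4324018 is given as a description, since its fall led to the choice of this name group. Its only probe set gave 2479.8, 1822.4 and 2085.7 in the wild type and 1120.1, 1229.0 and 1283.1 in dst. All dst values are below all wild-type values, and the lines lay apart in 18.4% of all genes, in either direction. The spread was wider in the wild type. The means were 2129 ± 331 and 1211 ± 83.0 (SD, n = 3). By the means of the log2 signals the level was 1.75-fold lower in dst. The log2 difference was -0.81 ± 0.14 (SE), with a 95% interval of -1.11 to -0.50. Between arrays of the same number it was -1.15, -0.57 and -0.70. Its limma adjusted p was 0.0297, and the call was lost when any 1 of the 6 arrays was left out, with adjusted p from 0.0505 to 0.150 there and from 0.0183 to 0.201 over all alternatives. The GAPDH ratio above separates the same arrays, and its part in this difference was not tested.

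Neighbouring genes were looked up because LOC4324018 lies near another gene with an RH name. Among the 5 genes on each side of LOC4324018, 3 have a probe set and none passed in limma. All 3 lie on the same side of LOC4324018, so the other side was not measured. They averaged lower in dst, from -0.66 for LOC4324052 to -0.18 for LOC4324049, while 54.1% of all genes averaged higher. LOC4324050 gave 44.7 to 104.4 over the 6 arrays, around the filter value of 70.5. For LOC4324052, the signals were 102.9, 119.3 and 141.2 in the wild type and 69.6, 82.5 and 77.3 in dst, with an adjusted p of 0.602. These lines did not overlap either, as was the case for 18.4% of all genes. Of the neighbours of RH34, RH10 and RH17, 3, 8 and 7 were tested and none passed. The highest was LOC4333679, next to RH10, with signals of 1239.0, 818.0 and 602.8 in the wild type and 1394.7, 1786.4 and 1299.8 in dst. Its lines did not overlap, and the difference was 0.80 ± 0.24 (SE) with a limma adjusted p of 0.241.

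The partners of RH34 in the exon junction complex averaged higher in dst, and none passed the test. MAGO1, MAGO2 and OsY14b, which encode the Mago and Y14 proteins that lock eIF4A-III onto RNA, were the measured genes of the list for this complex and for nonsense-mediated decay. The brighter MAGO1 probe set, an _x_at set, gave 711.1, 812.0 and 781.1 in the wild type and 1121.1, 1037.8 and 909.6 in dst. The lines did not overlap, with dst higher, as in 10.7% of all genes. The difference was 0.41 ± 0.13 (SE), with a 95% interval of 0.11 to 0.71 and a limma adjusted p of 0.285. The dimmer one measured 0.24 ± 0.15 (SE), with overlap. MAGO2 measured 0.23 ± 0.13 (SE) and OsY14b 0.22 ± 0.28 (SE). With RH34, all 4 measured genes of the complex averaged higher in dst, beside 54.1% of all genes. Their median was 0.22 beside 0.02 over all genes. Of the 4, 1 (MAGO1, by its _x_at probe set) had an unadjusted p under 0.05 in limma, beside 12.6% of all tested genes.

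The translation initiation list has 6 measured genes, RH34 among them, and none passed in limma. It holds eIF-4A-1 and eIF-4A-3, which encode the DEAD-box helicase of the cap-binding complex, and genes of its partners eIF4E and eIF4G. For eIF-4A-1 the brightest probe set measured 0.09, with signals of 9503.0, 9654.2 and 8975.7 in the wild type and 10191.7, 9999.1 and 9820.4 in dst. These do not overlap, with dst higher, as in 10.7% of all genes, although the adjusted p was 0.796. Its dimmest probe set measured -0.97 ± 0.45 (SE) with overlap and an adjusted p of 0.496. Its _s_at probe set gave 4771.4, 5021.0 and 5085.3 in the wild type and 4755.4, 4661.9 and 4206.2 in dst. There every dst array was below every wild-type array, at -0.13 with a limma adjusted p of 0.723. In 14.1% of all rice probe sets the lines lay apart, in either direction. The probe sets of this helicase thus differ in direction too. The gene eIF-4A-3 measured 0.05, with overlapping lines. The cap-binding gene eIF-4E-1 gave 4532.7, 4393.8 and 4274.7 in the wild type and 5089.0, 5222.6 and 4984.5 in dst, a difference of 0.21 ± 0.09 (SE) with a limma adjusted p of 0.457.

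The splicing list has 9 measured genes with a median difference of 0.06, of which 7 averaged higher in dst and none passed. The splice-site factors U2AF35A and U2AF65A measured -0.23 and 0.19. SCL7 gave 266.6, 261.7 and 249.5 in the wild type and 369.2, 356.4 and 308.2 in dst. Its lines did not overlap, with dst higher, as in 10.7% of all genes. Its difference was the largest of this list, 0.41 ± 0.18 (SE), with an adjusted p of 0.474. Both SCL7 and OsRS2 are names that genes outside splicing also carry, so these members are uncertain. In the list for other helicases, DCL2A and DCL4 of small RNA production and the mitochondrial helicase gene OsSUV3 measured 0.01, 0.09 and 0.00. In the organelle list the names matched wsl3, wsl6 and wsl8, genes of white-striped leaf mutants, at -0.32, -0.26 and 0.14. They were matched by name alone, and whether they act in RNA splicing or editing was not checked, so they are uncertain members too. No gene with a probe set matched the names of cold-shock and glycine-rich RNA-binding proteins.

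Over these lists together, none of 23 genes without an RH name passed in limma, and 3 had an unadjusted p under 0.05, beside 12.6% of all tested genes. In dst 18 of the 23 averaged higher, beside 54.1% of all genes. In 4, among them the uncertain member SCL7, every dst array was above every wild-type array, beside 10.7% of all genes. MAGO1 and eIF-4A-1 are also among them, by their brightest probe sets only. The other MAGO1 probe set overlapped, and the _s_at probe set of eIF-4A-1 was lower on every dst array. By their brightest probe sets the 23 genes ran from -0.32 for wsl3 to 0.41 for MAGO1, the latter read by an _x_at probe set.

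**Figure D3:**
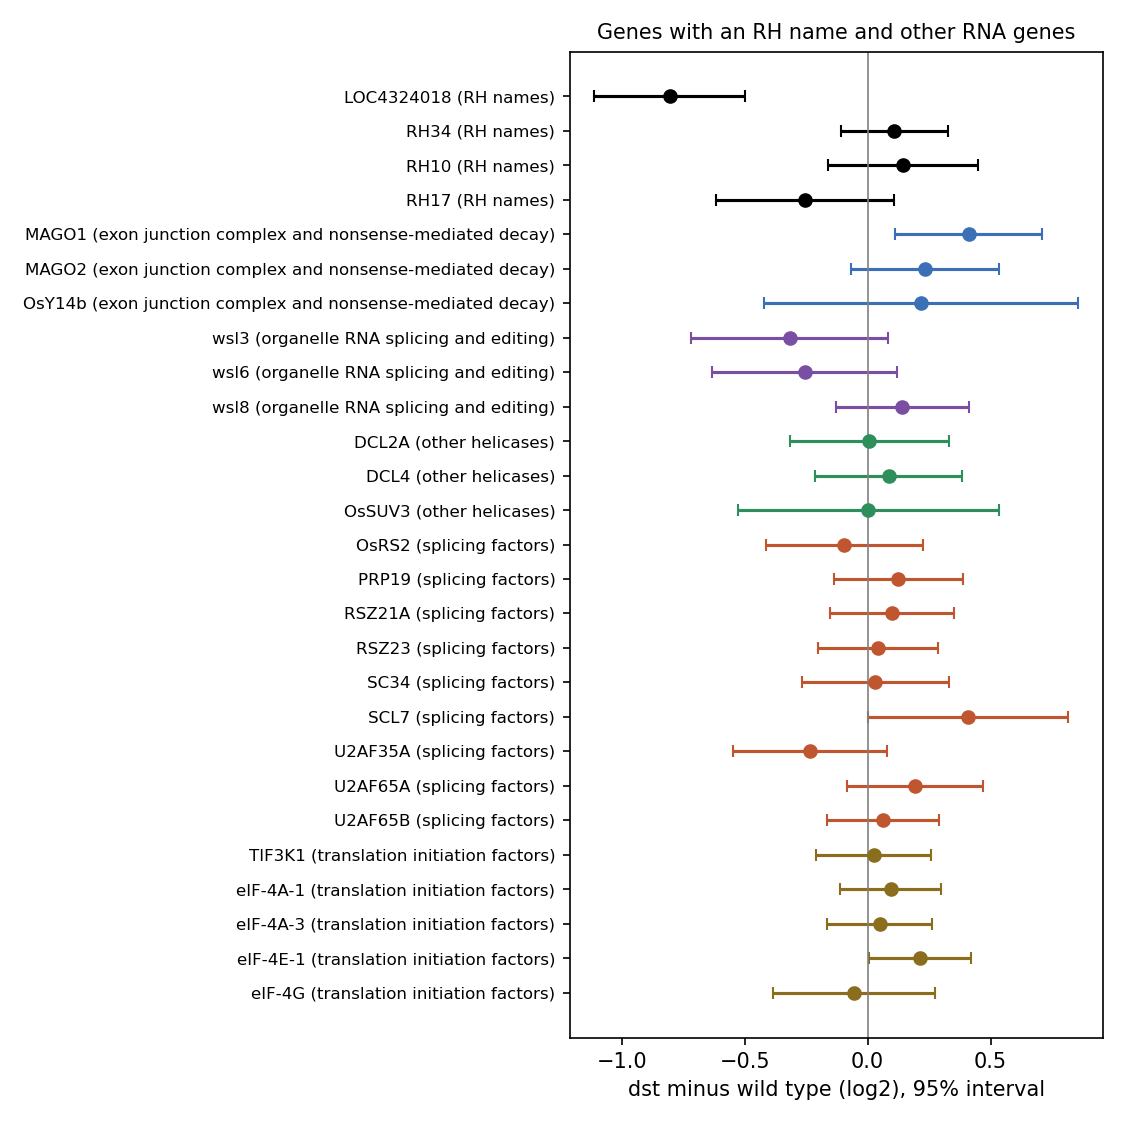
Difference in log2 signal, dst minus wild type, by the brightest probe set of each gene, with the 95% interval from limma. The 4 genes with an RH name are black, and 23 other genes of the RNA lists are coloured by list. LOC4324018, picked out for its fall, lies at -0.81, and the other genes lie between -0.32 and 0.41.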

How the data were processed

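Per the labels, biotin-labelled RNA was read on Affymetrix arrays. The file holds deposited signal intensity, 1 value per probe set and array, and the authors' software and scaling are not stated in the labels or the file. Each array had a mean of 500.1 after 2% of the values were trimmed at either end, so a common scaling before deposit appears likely. Signals below 1 were raised to 1 before the log2 step. Controls and reporters (187 probe sets) were not used for the comparison, nor were rice probe sets under the 40th percentile of mean log2 signal (70.5). The model was fitted with limma 3.58.1 under R 4.3.3, with lmFit and with eBayes using a trend of variance on mean and no covariate, and the Benjamini-Hochberg adjustment ran over all 34316 tested probe sets. Every adjusted p comes from it unless another fit is named. Plots were made in Python 3.11.15 with matplotlib 3.10.9.

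In the platform annotation 22436 rice probe sets have 1 gene, each found in the gene table, 95 have several and 34663 have none. Names were matched whole, to symbols or synonyms. No build is named for the array values, so the table gave names, spans and gene order but no coordinates. Members, lists and tests were chosen with earlier results of these data known. Among the genes with an RH name, values on every array are given for those past the threshold, for RH34, for probe sets at least 0.4 apart whose lines do not overlap, and for the member of each role group with the smallest p. Those of list genes and neighbours were chosen after their values were seen. In simulated data for dst against wild type, with the observed means and spreads of the 34316 probe sets, the model found 19 of 100 changes of 1 and 63 of 100 changes of 2 in log2, and 3 of its 85 calls were false. The simulated noise was normal and independent between arrays, so deviations shared by arrays were not part of it. The alternatives covered normalization, filter, offset, variance model, array weights, blocks, arrays left out, probe sets per gene and threshold. Sequences were not used here.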

Additional observations from a re-analysis of the deposited data

How the results depend on the processing

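Among the 4 genes, the count past the threshold was 1, and it was 0 without the variance trend, with replicates 1 and 2 only, at an adjusted p of 0.01, with each array left out (0 to 0), and without LOC4324018, an alternative chosen after seeing the data. For the variance trend and for the fits with fewer arrays the cause was not tested. A stricter threshold cannot raise the count. LOC4324018 measured -0.81 without the variance trend (adjusted p 0.201), -0.86 with replicates 1 and 2 only (adjusted p 0.105), -0.81 at the stricter threshold, and -0.91 to -0.69 with 1 array left out. It kept its sign in all 18 alternatives and passed 0.05 in 9 of the 17 that keep that threshold. The median over the 4 genes was -0.07, and it was 0.19 with the mean over probe sets of a gene, 0.11 without LOC4324018, and -0.139 to -0.0188 with 1 array left out. RH17 turned to 0.36 with the mean over its probe sets, where the dim probe set at 1.73 enters. RH34 and RH10 kept their sign and did not pass in 17 alternatives each.

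With the replicate block LOC4324018 measured -0.81 with an adjusted p of 0.0348, and the count past the threshold stayed at 1. Arrays of the same number correlated in their deviation from the line means at r of 0.051 and 0.052 over probe sets for replicates 1 and 2 and at 0.204 for replicate 3, so the numbers as a whole do not pair the samples, while the third arrays deviated alike. Over all probe sets, 317 passed, against 463 with the block, 80 without the variance trend, 532 with array weights, 606 with the third arrays as a block, 214 with replicates 1 and 2 only, and 118 to 280 with 1 array left out. Without detection calls, signal over background is not known, which limits the dim RH17 probe set most.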
